A study of Drosophila melanogaster with 120 samples.

Results

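P48 is 1 of the 15 hemiclonal lines of Drosophila melanogaster in this series. It was measured on 8 of the 120 arrays, 4 of adult females and 4 of adult males, which were taken by the line name in their labels. They were set against the 56 female and the 56 male arrays of the other 14 lines, within each sex. Every line carries 1 haploid genome sampled from LHM, a large outbred laboratory population, paired with random LHM genomes. Line males were crossed with LHM females to give the females that were measured, and with LHM females carrying the joined X chromosomes C(1)DX, y, f to give the males. Males of a line therefore had the X of the line alone and their Y from the mother, females had the X of the line beside a random one, and the fourth chromosome was not held by the lines. All flies were 14 days old counted from the egg and 4 days adult, had spent 24 h in yeasted vials with LHM testers of the other sex, were sorted under CO2 a further 20 h later, and were frozen whole in groups of 6 after another 4 h. The stocks of all lines were kept with clone-generator females that carry C(1)DX and a T(2;3) translocation, and each line stands for 1 haplotype, so P48 is a single genome and its 4 replicates per sex are independent groups of flies with that genome. Arrays were processed in batches that the labels do not give, so a batch was not modelled and its part in the results was not tested.

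A hemiclone places 1 genome in many flies whose other chromosomes vary, so that what its groups share is that genome. Most genes of the fly are used by both sexes from the same chromosomes, while ovary, testis, accessory gland and fat body give males and females very different transcript pools. The X is present as a single copy in males, in which the dosage compensation complex raises its output, and as a pair in females. A variant on the X of a line is therefore the only copy in its sons and 1 of a pair in its daughters.

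Values are RMA expression levels on the log2 scale for 18,769 probe sets, called transcripts here, so that a difference of 1 is 2-fold. SP and Acp26Aa of the accessory gland, betaTub85D and Mst87F of the testis and Yp1 to Yp3, which encode yolk proteins, separated males from females in P48 and elsewhere. None of 12 marker genes measured passed the limma test of P48 against the other lines at an adjusted p under 0.05 in either sex, and Act88F, a flight muscle actin, came nearest with 0.64 in females (adjusted p = 0.078). All 4 male P48 arrays correlated most with their own line, as did 55 of the other 56 male arrays. None of the 4 female P48 arrays did, against 44 of the other 56, of which P22 gave 0 of 4 and H07 1 of 4, and female replicate 4 had the lowest mean correlation with its own line, 0.992 across transcripts, where the other 3 reached 0.994 to 0.995. The mean of the yolk and eggshell genes was 5.08 to 5.76 in P48 males and 4.75 to 6.13 in the other males.

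The first question was how far P48 departed from the mean of the other 14 lines in each sex. In females 291 transcripts (1.55%) differed at an adjusted p under 0.05, 122 (0.65%) higher and 169 (0.9%) lower. In males 1661 transcripts (8.85%) differed, 934 (4.98%) higher and 727 (3.87%) lower. These calls rest on limma's moderated test with Benjamini-Hochberg adjustment and the spread between replicate samples. At an unadjusted p under 0.05 there were 1729 in females (9.21%) and 3780 in males (20.1%). Most differences were small, with a median size of 0.37 on the log2 scale among female calls and 0.32 among male calls, and 13 female (0.0693%) and 64 male (0.341%) calls reached 2-fold. The same comparison for each of the other lines, which shares arrays with this one, called 249 to 1530 transcripts in females and 901 to 4515 in males. In females only P22, with 249, gave fewer calls than P48. Leaving out both arrays of 1 replicate number left 187, 163, 190 and 210 female calls without replicates 1 to 4 and 1286, 1206, 1206 and 1039 male calls.

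P48 held an end of the line order for most but not all of its calls. Its mean was the highest of the 15 lines for 74 of the 122 female transcripts called higher and the lowest for 106 of the 169 called lower. In males it was the highest for 564 of 934 and the lowest for 426 of 727. Over all transcripts P48 was the highest line for 5.72% and the lowest for 4.13% in females, and for 7.97% and 5.41% in males. A stricter question is whether the P48 mean lies outside the spread of the other 14 line means, which takes lines rather than samples as the unit and assumes that the lone P48 mean varies like the others. By limma's test on line means, 11 transcripts (0.0586%) passed in females, 3 (0.016%) higher and 8 (0.0426%) lower, and 24 (0.128%) in males, 18 (0.0959%) higher and 6 (0.032%) lower. Without dim probe sets the male count was 12, 7 higher and 5 lower. At an unadjusted p under 0.05 there were 567 (3.02%) and 1053 (5.61%). The other lines gave 0 to 23 such transcripts in females and 1 to 91 in males, and only H07, with 91, exceeded P48 in males. In females the 4 P48 arrays lay above all 56 others for 4 transcripts (0.0213%) and below all of them for 8 (0.0426%), 12 together (0.0639%). In males they lay above for 43 (0.229%) and below for 15 (0.0799%), 58 together (0.309%). Without replicate 4 the female count was 32 in place of 12.

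Of the female and male calls, 127 transcripts (0.677%) were shared in the same direction, 54 (0.288%) higher and 73 (0.389%) lower, and 7 (0.0373%) were called in opposite directions. The shared transcripts were 44.3% of the female calls higher and 43.2% of the female calls lower, but 5.78% of the male calls higher and 10.04% of the male calls lower. The sign was the same in the other sex, called or not, for 83.6% and 84.0% of the female calls and for 69.8% and 76.3% of the male calls. Across all 18,769 transcripts, which are not independent replicates, the female and male differences had a Pearson correlation of 0.364 and a Spearman correlation of 0.251, from arrays that the sexes do not share. Without replicates 1, 2 and 3 in turn, the shared count was 74, 68 and 67.

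**Figure D1:**
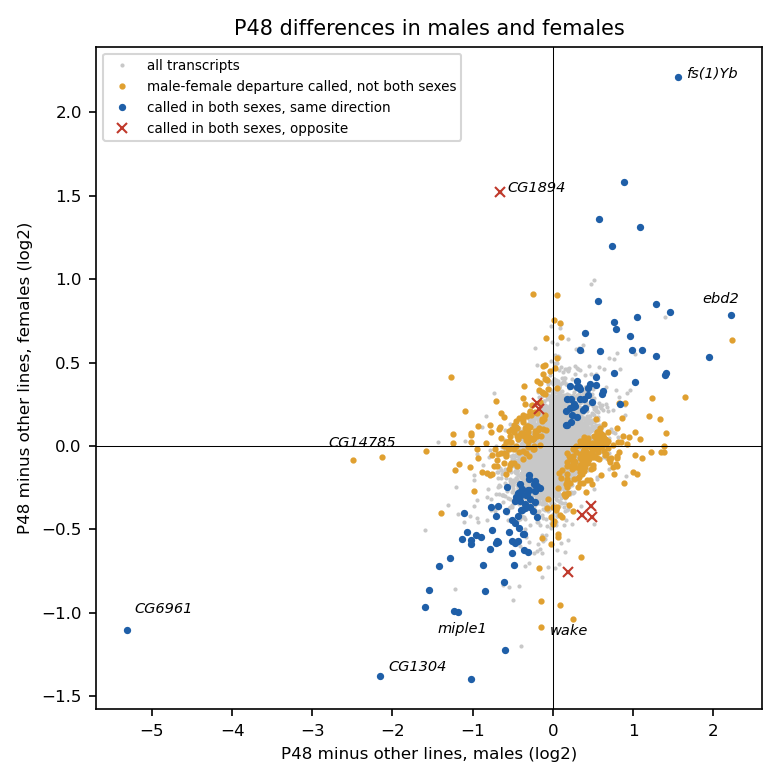
Difference of P48 from the mean of the other 14 lines in males (x axis, log2) and in females (y axis, log2), with 1 point for each of 18,769 transcripts. The 127 shared calls lie in the lower left and upper right, and CG6961 stands at -5.32 in males and -1.10 in females.

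In both sexes 7 transcripts (0.0373%) had all P48 arrays outside all other arrays, of which 3 were higher and 4 lower in P48. fs(1)Yb, an X-linked gene of the piRNA pathway that works in the somatic cells of the ovary, read 7.43, 7.24, 7.12 and 6.94 in P48 females. The other females ran from 4.11 to 5.77 with a median of 4.97. P48 females were higher by 2.21 ± 0.14 SE on the log2 scale (n = 4 against 14 lines, limma adjusted p = 1.22e-16). Line means of the other lines were 4.46 to 5.30 in females and 4.23 to 4.76 in males. These lie at the low end of the scale, so no fold is given. Their mean was under the level of 5 set for named genes in each sex, so the gene met that level through P48 alone. P48 males read 6.05, 5.68, 6.03 and 6.21 against 3.92 to 5.03, with a difference of 1.56 ± 0.10 (adjusted p = 1.78e-17). Line means of fs(1)Yb in P48 also lay outside the spread between lines in females (adjusted p = 0.000181) and in males (adjusted p = 0.000227). The excess was smaller in males by 0.65 ± 0.17 (adjusted p = 0.0232), a call that was lost without replicate 1, 2 or 3 (adjusted p = 0.153, 0.275 and 0.0677).

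Ssl2 on arm 3R, named for its likeness to strictosidine synthase, followed the same order at a lower level. Line means of the other lines were 4.51 to 4.99 in females and 4.78 to 5.24 in males, also at the low end of the scale. In females the gene therefore met the level of 5 set for named genes through P48 alone. P48 females read 5.91, 5.58, 5.99 and 6.14 against 4.33 to 5.41 in the others (difference 1.20 ± 0.10, adjusted p = 4.6e-13). P48 males read 5.80, 5.82, 5.85 and 5.52 against 4.63 to 5.47 (0.74 ± 0.09, adjusted p = 6.74e-09), and the line mean passed in both sexes. The difference between the sexes, -0.46 (adjusted p = 0.0368), did not pass without replicate 1 (-0.48, adjusted p = 0.0975), replicate 3 (-0.46, adjusted p = 0.122) or replicate 4 (-0.31, adjusted p = 0.51). ebd2, a relative of the Wingless co-factor ebd1, was higher in both sexes too, but with the larger difference in males. P48 males read 8.44, 7.49, 8.39 and 8.80, where the other males ran from 4.88 to 7.06 with a median of 6.06, a 4.65-fold excess (2.22 ± 0.31, adjusted p = 6.99e-07). P48 females read 9.09, 8.96, 9.14 and 8.79 against 7.53 to 8.66 (0.79 ± 0.08, adjusted p = 3.28e-09). The difference between the sexes, 1.43 ± 0.33, passed (adjusted p = 0.00479), though not without replicate 4 (1.19, adjusted p = 0.127). Males of the other lines had lower ebd2 values than females, and the P48 males, at 7.49 to 8.80, overlapped the females of the other lines at 7.53 to 8.66.

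miple1, which encodes a secreted growth factor of the midkine and pleiotrophin family, was lower in P48. P48 males read 8.11, 7.95, 8.15 and 8.08 against 8.89 to 9.58 in the others, a 2.36-fold deficit (-1.24 ± 0.06, adjusted p = 1.96e-23). P48 females read 6.03, 6.16, 5.92 and 6.45 against 6.72 to 7.69 (-0.99 ± 0.10, adjusted p = 2.58e-10). Its neighbour on arm 3L and fellow family member, miple2, was lower in P48 females by 0.28 and stood at 0.19 above the other lines in males. CG32428 and Sras, both on 3L, differed by like amounts in the sexes. CG32428 differed by -0.71 ± 0.06 in males and -0.58 ± 0.06 in females, and Sras, a prenyl protein protease, by -0.43 ± 0.06 and -0.42 ± 0.05. For all 3 genes the line mean passed in both sexes, with adjusted p-values of 2.5e-05 to 0.00822. The seventh gene, Hacd2 on 2L, an enzyme of very long chain fatty acid synthesis, was lower by 0.40 ± 0.05 in males and 0.27 ± 0.03 in females, and its line mean did not pass in either sex. CG32428, Sras and Hacd2 fell outside the rule for named genes and are given as the rest of this count of 7.

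**Figure D2:**
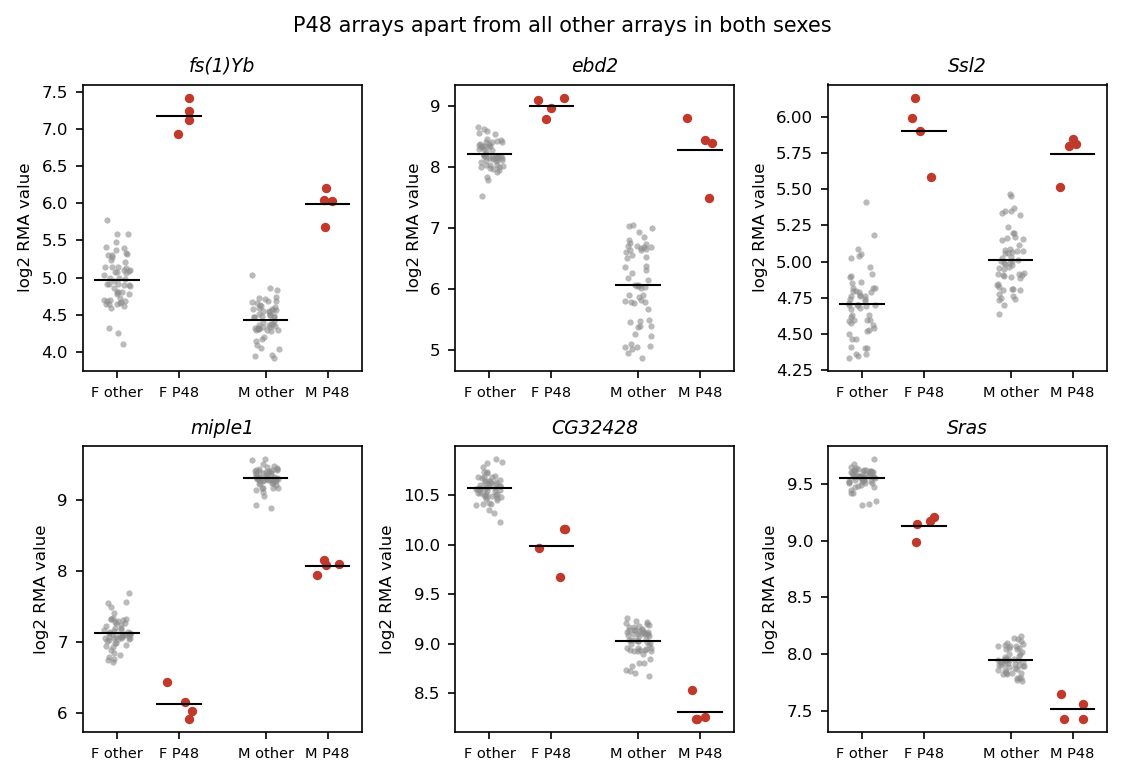
RMA values (log2, y axis) of 6 genes in every array, for females (F) and males (M) of the other 14 lines (grey, 56 arrays per sex) and of P48 (red, 4 arrays per sex), with bars at the mean. In each panel and sex the 4 P48 points lie wholly above or wholly below the grey ones, as for fs(1)Yb at 6.94 to 7.43 against 4.11 to 5.77 in females.

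Among the other genes higher in both sexes, a run of neighbours lay on the X. CG14204, CG14219 and CG14205 lie side by side, and all 3 were called higher in P48 females, by 0.41, 0.80 and 1.31. In males CG14219 read 5.72, 6.49, 7.07 and 5.87 against 4.04 to 5.91 (1.47 ± 0.17, adjusted p = 6e-09) and CG14205 read 5.75, 6.52, 6.51 and 5.97 against 4.33 to 6.99 (1.09 ± 0.18, adjusted p = 1.35e-05), while CG14204 stood at 0.12 above the others without being called. P48 was the highest line for CG14205 and CG14219 in both sexes, but its arrays overlapped those of others: H07, P50 and P56 lay within 1 log2 unit of it for CG14205 in both sexes. The other males averaged under the level of 5 set for named genes for CG14219, so in males it met that level through P48 alone. The female call of CG14205 was lost without replicate 2 (1.24, adjusted p = 0.0536), and that of CG14219 without replicate 1 or 2 (0.70 and 0.64, adjusted p = 0.20 and 0.335) or without line P07 (adjusted p = 0.0515).

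Other genes higher in both sexes included 1 of defence and 1 of odorant binding. Drsl4, a drosomycin-like peptide gene, read 12.13, 11.71, 12.50 and 12.40 in P48 males against 9.86 to 12.62 (1.05 ± 0.17, adjusted p = 1.04e-05) and was higher in females by 0.77 ± 0.15 (adjusted p = 0.000803). P26 had a higher mean than P48 in both sexes. Obp57a, an odorant-binding protein gene, was higher by 0.75 ± 0.15 in females (adjusted p = 0.00165) and 0.76 ± 0.23 in males (adjusted p = 0.0275), and 3 lines in males and 2 in females had higher means. Its male call was lost without any 1 of the 4 replicates (adjusted p = 0.0911, 0.0502, 0.129 and 0.0772). CG9672 on the X was higher by 0.78 ± 0.08 in males, below P22 in line order, and 0.70 ± 0.12 in females, below H07. CG13313 on 3L was higher by 0.99 ± 0.19 and 0.58 ± 0.11, and CG7300 on 2L by 0.97 ± 0.15 and 0.66 ± 0.17. The female call of CG7300 was lost without replicate 2 or 4 (adjusted p = 0.133 and 0.234) and without line H10 or H14 (adjusted p = 0.0519 and 0.0509).

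A deficit of CG6961, an X-linked gene, had the largest fitted difference. P48 males read 4.24, 3.90, 3.48 and 3.82, where the other males had a median of 9.60 (-5.32 ± 0.07 against the mean of the other lines, adjusted p = 1.43e-48). The P48 male values lie at the low end of the scale, and with no detection calls used they are not shown to be above background, so no fold is given. P48 females read 10.17, 9.78, 10.49 and 9.47 against a median of 11.14 (-1.10 ± 0.15, adjusted p = 2.22e-06). The deficit was not P48's alone. P56 had male and female means of 3.78 and 9.72, close to the 3.86 and 9.98 of P48, while the remaining 13 lines had means of 9.39 to 9.71 in males and 11.03 to 11.35 in females. With P56 among the other lines, the line mean of P48 did not lie outside their spread (adjusted p = 0.396 in males). The male and female differences were themselves different, by -4.22 ± 0.17 (adjusted p = 5.98e-39), a size that rests on the same low male values.

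CG1304 and Ser6, neighbouring serine protease genes on the X, were low in P48 and in a large share of the lines. CG1304 read 3.80, 3.71, 3.51 and 3.82 in P48 males and 3.58, 3.72, 3.85 and 4.00 in P48 females. P07, P13, P15, P18, P22, P26 and P56 had means of 3.56 to 3.80 in males, and the 6 H lines and P50 had means of 7.32 to 8.91. Against the mean of these 14 lines P48 males were lower by 2.15 ± 0.10 (adjusted p = 8.16e-24) and P48 females by 1.38 ± 0.14 (adjusted p = 2.53e-09). Ser6 read 6.81, 6.75, 6.77 and 6.56 in P48 males, with 6 other lines within 6.61 to 7.02, P26 at 3.89, and the H lines and P50 above them up to 10.11. Its differences were -1.42 ± 0.08 in males and -0.72 ± 0.13 in females. For both genes the deficit was larger in males, by 0.77 ± 0.18 for CG1304 (adjusted p = 0.00336, and 0.0648 without replicate 3) and 0.71 ± 0.16 for Ser6 (adjusted p = 0.00287, and 0.0745 without replicate 4). P48 itself had nearly equal means in males and females, 3.71 and 3.79 for CG1304, at the low end of the scale, and 6.72 and 6.66 for Ser6. The CG1304 contrast rests on the H lines and P50, whose means were 7.32 to 8.91 in males and 5.98 to 7.01 in females.

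**Figure D3:**
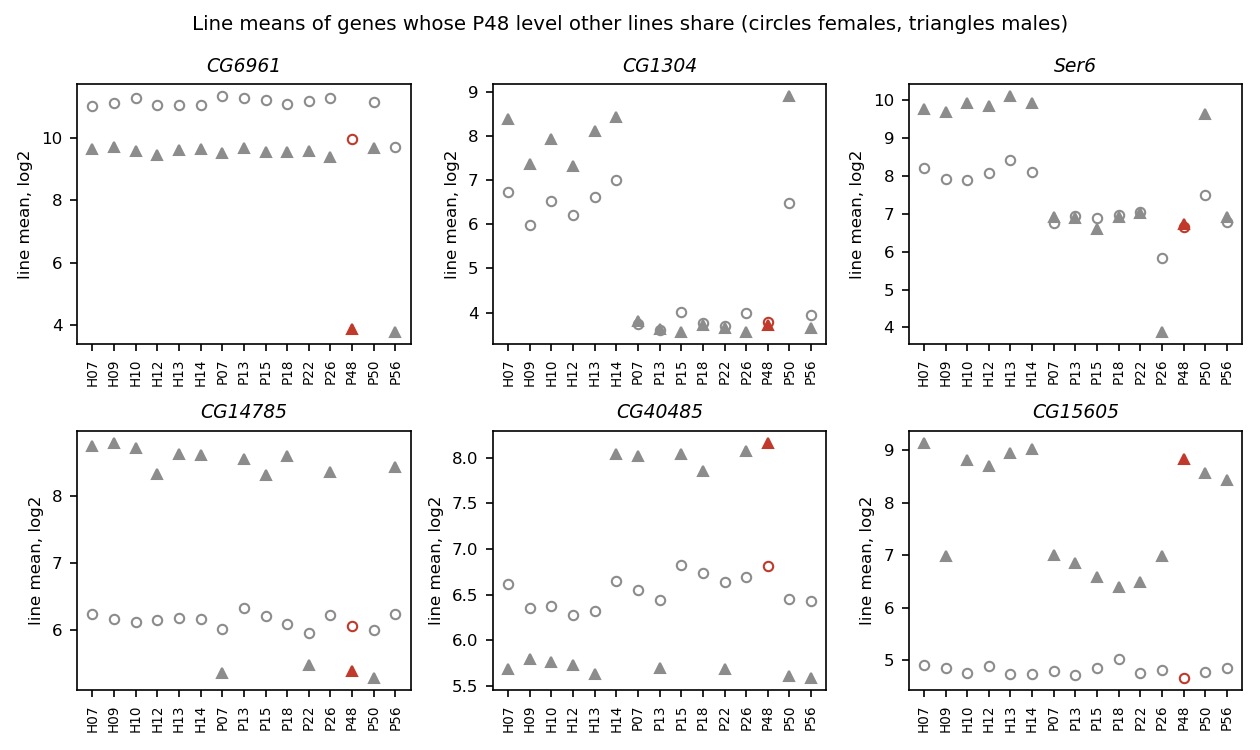
Mean RMA value (log2, y axis) of each of the 15 lines (x axis) for 6 genes, females as open circles and males as filled triangles, with P48 in red and 4 arrays behind each mean. P48 shares its male level of CG6961 with P56, of CG14785 with P07, P22 and P50, of CG40485 with H14, P07, P15, P18 and P26, and of CG15605 with 7 lines, while female means of CG14785, CG40485 and CG15605 lie within 1 log2 unit of each other.

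Proteases and an esterase were among the other genes lower in both sexes. Jon99Ci, a Jonah serine protease of the gut, read 8.98, 8.83, 8.86 and 8.85 in P48 females against 8.70 to 12.10 with a median of 10.34 (-1.40 ± 0.23, adjusted p = 9.68e-05), and P48 had the lowest line mean. In males it read 11.14, 11.05, 10.99 and 11.43 against 10.27 to 12.96 (-1.02 ± 0.16, adjusted p = 4.27e-06). Jon44E, another Jonah protease, was lower by 1.54 ± 0.21 in males (adjusted p = 2.62e-07) and 0.86 ± 0.20 in females (adjusted p = 0.00909), the latter lost without replicate 2 or 3 (adjusted p = 0.0543 and 0.233). P13 and P22 had lower female means of Jon44E, 8.50 and 8.48 beside 8.75 for P48. alpha-Est2, an esterase of the alpha-esterase cluster, read 6.38, 6.24, 7.17 and 6.10 in P48 males against 6.35 to 8.69 (-1.18 ± 0.14, adjusted p = 9.2e-09) and was lower in females by 0.99 ± 0.13. P15, P18 and P22 had male means of 6.56 to 7.04, near the 6.47 of P48. In females P15 was lower than P48, at 6.75 beside 6.96. CG3397 varied widely in P48 itself, with 7.38, 5.36, 5.01 and 6.25 in males, and was lower by 1.59 ± 0.28 in males and 0.97 ± 0.15 in females. Its low level was shared, with H14, P15, P22 and P50 at male means of 5.99 to 6.92 beside 6.00 for P48. P15 was lower than P48 in both sexes. CG2772 was lower by 0.85 ± 0.21 and 0.87 ± 0.21, but its female call was lost without replicate 1, 3 or 4 (adjusted p = 0.0544, 0.132 and 0.201) and its male call without replicate 1 or 3 (adjusted p = 0.055 and 0.0604). For CG2772, 9 lines in males and 8 in females lay within 1 log2 unit of P48. P26 was lower than P48 in both sexes and P56 in males.

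A pair of organic anion transporter genes on 2R differed in opposite directions in males. Oatp58Dc read 8.70, 8.83, 8.64 and 9.07 in P48 males against 9.23 to 10.30, so that the groups did not overlap (-0.87 ± 0.08, adjusted p = 6.91e-12). It was lower in females by 0.71 ± 0.13 (adjusted p = 0.000317), and its male line mean passed (adjusted p = 0.0232). Oatp58Db read 8.52, 8.52, 8.46 and 8.79 in P48 males against 7.35 to 8.43, above all of them (0.60 ± 0.08, adjusted p = 1.26e-07), and differed by 0.04 ± 0.07 in females. It is named outside the rule, after its values were seen.

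The next question was which differences occurred in one sex. Of the male calls, 1527 (8.14% of all transcripts) were not called in females, and of the female calls, 157 (0.836%) were not called in males. A miss in the other sex does not show a difference between the sexes, so the male-female difference of P48 was tested against that of the other lines. It departed for 367 transcripts (1.96%), 207 (1.1%) towards males and 160 (0.852%) towards females. The median size was 0.53, and 36 (0.192%) reached 2-fold, 20 (0.107%) towards males and 16 (0.0852%) towards females. At an unadjusted p under 0.05 there were 1983 (10.6%). These 367 included 275 (1.47%) of the 1527 male calls, 43 (0.229%) of the 157 female calls, 16 (0.0852%) of the 127 shared calls and the 7 opposite ones, the percentages again being of all transcripts, while 26 were called in neither sex. The male difference was the larger of the pair in 296 of the 367. The count was 269, 226, 235 and 191 without replicates 1 to 4.

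Among genes higher in P48 males, CG17684, Amnionless and mus301 stood apart from all other males. CG17684 read 6.996, 7.48, 7.25 and 7.35 in P48 males against 5.21 to 6.35 (1.41 ± 0.09, adjusted p = 1.78e-17) and 5.05, 5.11, 5.27 and 4.92 in P48 females against 4.51 to 5.34, a departure of 1.33 ± 0.13 (adjusted p = 2.76e-14). Its other 2 probe sets differed by -0.07 and 0.00 in males, so the excess was seen by 1 of 3. Amnionless, whose product serves protein uptake in nephrocytes, read 5.49, 4.89, 5.52 and 5.19 in P48 males, where the other males reached 4.45 at most (1.34 ± 0.11, adjusted p = 1.97e-13), and differed by 0.16 ± 0.09 in females. It met the level of 5 set for named genes only through the P48 males, whose mean was 5.27, while the other line means were 3.65 to 4.13 in males and those of all lines 3.76 to 4.35 in females, at the low end of the scale. mus301, a DNA helicase gene of repair and meiosis, read 6.24, 6.19, 6.37 and 6.34 against 4.65 to 5.71 (1.09 ± 0.10, adjusted p = 2.93e-12) and differed by 0.04 ± 0.10 in females, whose values in the other lines were 8.08 to 8.94. The male line mean of each of these 3 genes lay outside the spread between lines (adjusted p = 0.000227 to 0.000528).

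CG32751 and CG9981, both on the X, were also above all other males, but their line means did not pass the test between lines (adjusted p = 0.579 and 0.814). CG32751 read 6.89, 7.51, 6.87 and 6.89 against 3.92 to 6.51 (2.23 ± 0.12, adjusted p = 1.1e-20), and its departure of 1.60 ± 0.36 (adjusted p = 0.00311) was lost without replicate 2 or 3 (adjusted p = 0.0631 and 0.0928). CG9981 read 7.40, 7.33, 7.35 and 7.60 against 4.41 to 6.95 (1.95 ± 0.09, adjusted p = 3.25e-23) and departed by 1.42 ± 0.16. It was called in females as well (0.53 ± 0.13, adjusted p = 0.0145), though not without replicate 1 or 2 (adjusted p = 0.154 and 0.189). The long noncoding RNA alphagamma-element, a locus known for heat induction, read 6.55, 6.60, 6.68 and 9.63, so that its male difference of 1.39 ± 0.24 fell to 0.64 without replicate 4 (adjusted p = 0.00777) and its departure of 1.39 to 0.61 (adjusted p = 0.185). None of 14 measured heat shock genes was called in either sex at an adjusted p under 0.05 by limma, beside 8.85% of all transcripts in males and 1.55% in females. At an unadjusted p under 0.05 in that test there were 2 in males and 0 in females, beside 20.1% and 9.21% of all transcripts. That test compares the mean of the 4 arrays, so it cannot tell what replicate 4 alone did, and heat as a cause was not tested.

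For other genes higher in males, P48 shared its level with several lines. CG40485 on the X read 8.34, 7.99, 8.33 and 7.99, with H14, P07, P15, P18 and P26 at means of 7.86 to 8.08 and the other 9 lines at 5.58 to 5.79, and its difference was 1.65 ± 0.12. Its other probe set differed by -0.10 in males. CG15605 read 8.85, 8.89, 8.66 and 8.92, with 7 lines at 8.43 to 9.14 and 7 at 6.39 to 6.997 (1.05 ± 0.23, adjusted p = 0.00115). Sdic3, of the sperm dynein intermediate chain cluster whose near-identical copies the probes may not tell apart, read 8.93, 9.23, 9.39 and 9.73 in P48 males, and the other males ran from 5.13 to 10.49 (1.39 ± 0.14, adjusted p = 2.39e-10). P48 females differed from the other females by 0.29 ± 0.13, -0.17 ± 0.09 and -0.03 ± 0.11, none of which passed.

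**Figure D4:**
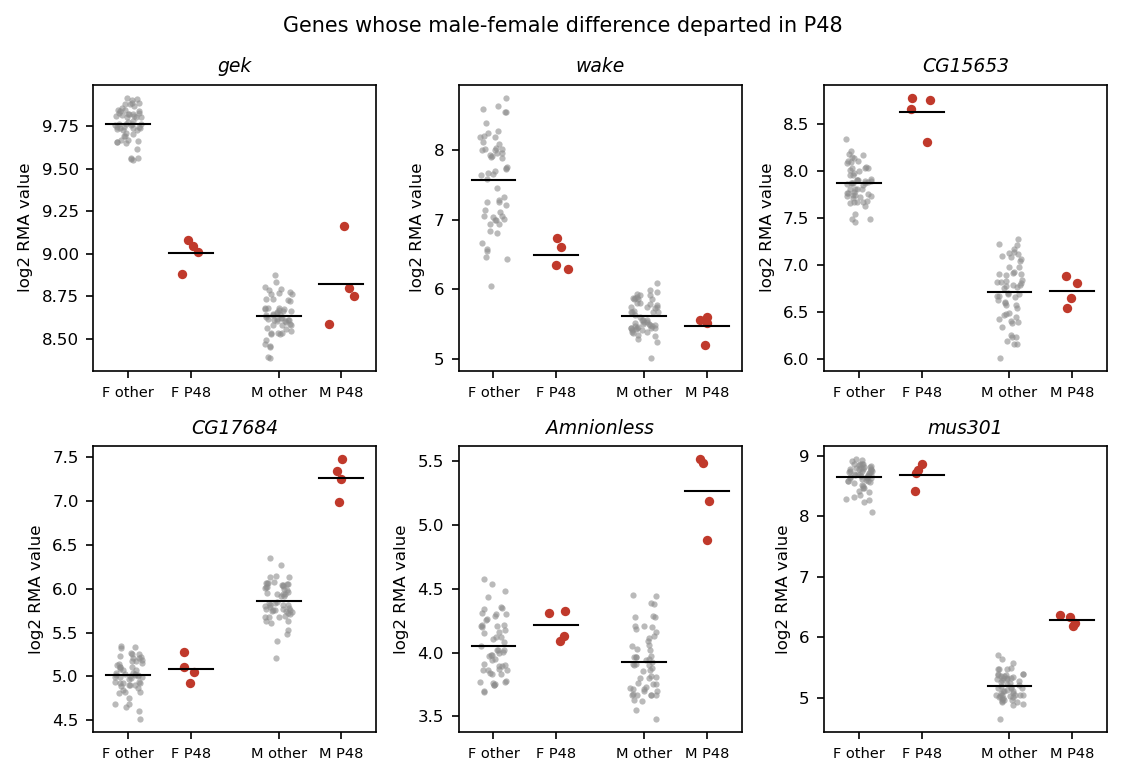
RMA values (log2, y axis) of 6 genes in every array, laid out as for the genes that differed in both sexes. gek, wake and CG15653 differ in P48 females, and CG17684, Amnionless and mus301 in P48 males, where the 4 points lie above all 56 others.

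Several of the male deficits were levels that P48 held together with other lines. CG14785 on the X read 5.31, 5.28, 5.36 and 5.56 in P48 males and 5.89, 6.01, 6.22 and 6.10 in P48 females. P07, P22 and P50 had male means of 5.27 to 5.47, and the other 11 lines 8.31 to 8.80, so that the difference was -2.49 ± 0.12 in males, -0.09 ± 0.08 in females and -2.41 ± 0.15 between the sexes (adjusted p = 2.38e-25). CG15369, also on the X, read 4.93, 4.89, 4.89 and 4.61 in P48 males. Here P48 belonged to a majority of 11 lines with low means, and H07, H10, H14 and P13 had means of 9.14 to 11.52, which set the difference of -1.58 ± 0.11. lncRNA:CR40465 read 5.51, 5.06, 5.45 and 5.22, with 5 lines near it at 4.91 to 5.58 and 9 at 6.86 to 7.73 (-1.25 ± 0.21, adjusted p = 1.62e-05).

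CG10029 and CG17177 had their lowest male line means in P48. CG10029 read 8.03, 8.29, 8.33 and 7.57 against 7.89 to 9.91 (-1.27 ± 0.11, adjusted p = 3.22e-12), with P15 and P18 within 1 log2 unit. CG17177 read 3.87, 3.97, 4.22 and 2.79 against 2.90 to 8.60 (-2.13 ± 0.43, adjusted p = 0.000418), and its departure of -2.07 ± 0.45 did not pass without replicate 4 (-1.75, adjusted p = 0.0717). These P48 values lie at the low end of the scale, as do the female means of all lines, at 2.66 to 2.83. H07, H09 and P56 had male means of CG17177 within 1 log2 unit of P48, at 4.17 to 4.68. CG33109 read 10.14, 10.48, 9.13 and 8.27, and its departure went from -1.30 ± 0.24 to -0.71 without replicate 4 (adjusted p = 0.167). CG42828 and CG3528 were lower in P48 males by 1.25 ± 0.20 and 1.02 ± 0.13 and differed by 0.02 ± 0.10 and 0.08 ± 0.12 in females. Other lines shared both male levels. For CG42828, P07, P13, P22 and P26 had means of 6.95 to 8.26 beside 7.44 for P48, P22 being the lowest. For CG3528, P13, P22 and P26 had means of 6.79 to 6.91 beside 6.79 for P48. Gld, glucose dehydrogenase of the ejaculatory duct, was below all other males at 9.49 to 9.96 against 10.11 to 11.18 (-0.93, adjusted p = 1.85e-12), with a departure of -0.86 (adjusted p = 5.38e-05).

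Fewer departures were larger in females than in males. gek encodes a kinase that binds Cdc42 and acts on actin. It read 9.05, 9.01, 9.08 and 8.88 in P48 females against 9.55 to 9.92, so that the groups were apart by more than the whole range of the others (-0.76 ± 0.05, adjusted p = 1.44e-16), and its line mean passed (adjusted p = 1.89e-05). P48 males read 8.80, 8.59, 8.75 and 9.16 against 8.39 to 8.87, called higher by 0.19 ± 0.06 (adjusted p = 0.0175) but not without replicate 4 (0.08, adjusted p = 0.533). The departure of 0.95 ± 0.07 passed (adjusted p = 3.74e-19). su(sable), an X-linked gene for a nuclear RNA-binding protein, also lay below all other females, at 8.96 to 9.24 against 9.25 to 9.73 (-0.37 ± 0.05, adjusted p = 4.78e-07), and departed by 0.29 ± 0.07 (adjusted p = 0.0122). It is outside the rule and is named for its separation.

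wake, which acts in clock neurons to time sleep, read 6.74, 6.60, 6.35 and 6.29 in P48 females against 6.04 to 8.76, with P50 lower still by line mean (-1.08 ± 0.13, adjusted p = 4.31e-08), and it differed by -0.14 ± 0.11 in males. P07, P15, P18, P22, P26 and P50 had female means of 6.40 to 7.14, and the other 8 lines 7.68 to 8.38. tut, whose product restrains germ cell division in the testis, read 4.23, 3.75, 4.08 and 3.90 in P48 females against 4.01 to 6.54 (-1.04 ± 0.22, adjusted p = 0.00369, and 0.0509 without replicate 2). P48 was the lowest line for tut, but 7 lines lay within 1 log2 unit of it, at 4.31 to 4.74. The P48 values of tut are at the low end of the scale. Drep1, of the DNA fragmentation factor family, was lower by 0.93 ± 0.18 (adjusted p = 0.000998), but replicate 1 at 6.52 stood below the other 3 at 7.85 to 8.20, and without it neither this call (-0.56, adjusted p = 0.142) nor the departure (0.43, adjusted p = 0.463) passed. P18 and P26 had lower female means of Drep1, 7.38 and 7.52 beside 7.63 for P48. The departure of Drep1 also missed without replicate 2 (adjusted p = 0.0502). CG17470 departed by 1.04 ± 0.29 (adjusted p = 0.0294) with a female difference of -0.95 ± 0.28 that did not pass (adjusted p = 0.0681), and the departure missed without replicate 1, 3 or 4 or without line H09, H10, H12 or P18 (adjusted p = 0.0601 to 0.228).

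On the higher side, CG15653 read 8.78, 8.66, 8.75 and 8.31 in P48 females against 7.46 to 8.34 (0.75 ± 0.09, adjusted p = 2.81e-08), and its line mean passed (adjusted p = 0.0406). Males of P48 differed by 0.01 ± 0.09. CG3085 read 7.52, 7.64, 7.73 and 7.18 against 5.91 to 7.52 (0.90 ± 0.11, adjusted p = 2.05e-07) and differed by 0.05 ± 0.07 in males, where its values in the other lines were 9.89 to 10.62.

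The 7 transcripts called in opposite directions were Dbct, Spec2, CG11825, CG1894, CG17129, gek and CG1888. CG1894 had the largest contrast, with 8.98, 8.96, 8.42 and 9.10 in P48 females against 6.06 to 8.63 (1.52 ± 0.26, adjusted p = 0.000109) and 6.37, 6.43, 6.78 and 6.29 in P48 males against 5.95 to 8.33 (-0.66 ± 0.13, adjusted p = 0.0004). A second probe set of CG1894 read otherwise, at 0.82 higher in males and 0.03 in females, so the gene has no single direction here. Spec2, a small binding partner of Cdc42 as gek is, was higher in males by 0.48 ± 0.08 and lower in females by 0.42 ± 0.07, and its male line mean passed (adjusted p = 0.033). The differences of the other 4 were 0.17 to 0.47 in males and 0.22 to 0.41 in females in size.

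By chromosome arm, the X had the highest share of its own transcripts called in males among the large arms. In males 277 of 2188 X-linked transcripts (12.7%) were called, against 9.74% to 10.8% on 2L, 2R, 3L and 3R. Male calls of at least 2-fold were 22 of 2188 on the X, beside 0.341% of all transcripts. They were 4 of 2462 on 2L, 9 of 2733 on 2R, 11 of 2664 on 3L and 11 of 3407 on 3R. Male calls of at least 0.5 numbered 72 on the X and 237 on these autosomal arms in P48. The counts were 69 and 182 in H14 and 65 and 163 in P18, so such an X share was not particular to P48. Departures of the male-female difference came to 3.84% on the X (84 transcripts) and 1.94% to 2.44% on the large autosomal arms. In females the X share was 2.38% and that of the autosomal arms 1.62% to 1.99%. Among transcripts with a male difference of at least 0.5, the median of the female over the male difference was 0.189 on the X (72 transcripts) and 0.149 to 0.213 on the autosomal arms. The fourth chromosome, which the lines did not hold, had 9 of 82 transcripts called in males (11%) and 1 in females (1.22%), among them Mpv17, higher by 0.44 in males and 0.35 in females with all 4 female arrays above the others. Y-linked transcripts, which came from the mothers of the males, had 1 of 6 called, ORY at -0.52 (adjusted p = 0.0321), a call lost without any 1 replicate.

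Genes called in the same direction sat beside each other in 90 runs of 188 genes in males and 6 runs of 13 genes in females. In the fit with 1 probe set for each of 11,981 named genes, 1468 were called in males and 276 in females. How many runs so many calls would give in a random gene order was not tested, so no clustering is claimed. The longest run was 4 genes on 2R, CG1648, lectin-46Cb, lectin-46Ca and CG34033, lower in males by 0.32, 0.29, 0.37 and 0.40. ebd2 led a run with CG12971 and CG32437, which were higher by 0.26 and 0.25 beside its 2.22. Other female runs were Prx6c with CG11825, Ctr9 with sturkopf, and Idh3g with RpL27.

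Over the transcripts as a whole, the male-female difference of P48 was close to that of the rest. Regressed on the mean difference of the other 14 lines, it had a slope of 1.001 and a correlation of 0.996, where the other lines had slopes of 0.963 to 1.030. Calls fell on both sides in each class of sex bias. Of 3653 transcripts with at least 2-fold more in males, 292 were called higher and 284 lower in P48 males (15.8% together, beside 8.85% of all transcripts). Of 3832 with at least 2-fold more in females, 200 were higher and 164 lower in P48 males (9.5%). Of the remaining 11,284, 442 were higher and 279 lower (6.39%), so male-biased transcripts had the highest share called in males. P48 females gave 21 higher and 40 lower in the first class (1.67%) and 31 and 45 in the second (1.98%). The third class had 1.36% called in females, beside 1.55% of all transcripts.

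Gene lists give the same calls by function, with 1 probe set per gene. A call is against the mean of the other lines, so P48 need not hold an end of the line order. The median difference of all transcripts was 0.00 in females and 0.01 in males, and the share of a list that was called stands beside 8.85% of all transcripts in males and 1.55% in females. Seminal fluid genes had 9 of 37 called in P48 males, all lower (24.3%), with a list median of -0.07, and none in females, where 2 had an unadjusted p under 0.05 by limma. Sfp26Ad, Sfp53D and the sperm storage factors lectin-46Ca and lectin-46Cb were among them, with differences of -0.70, -0.37, -0.37 and -0.29 at mean levels of 10.9, 9.64, 9.58 and 10.4. Of the 9, 4 also departed between the sexes (10.8% of the list, beside 1.96% of all transcripts), and the defining genes SP, Acp26Aa and Dup99B were not called. The call of lectin-46Ca was lost without replicate 4, as was its departure without replicate 1 or 4 and that of Sfp53D without replicate 1 or 3. Of 7 genes listed for the ejaculatory duct and bulb, Gld and NLaz were lower in males (28.6%). Female line means of NLaz were 9.46 to 10.12, so its transcript was not confined to these male organs.

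Digestive enzyme genes had 8 of 47 lower and none higher in males (17%), and 6 lower and 1 higher in females (14.9%). Of all transcripts 8.85% were called in males and 1.55% in females. Besides the Jonah genes and Ser6, Jon65Ai was lower in males by 0.98 and Amyrel, an amylase relative, by 0.98, neither of them called in females, while the maltase gene Mal-B1 was higher in females by 0.59. P56 had a lower male mean of Jon65Ai, 9.07 beside 9.72 for P48. The lysozyme genes LysP and LysS were lower in males by 0.72 and 0.28. Genes of the fat body and storage had 7 of 20 higher and 2 lower in males (45%), and 3 higher and 1 lower in females (20%), some of them members of other lists too. fit, a gene of the fat body of the head with more transcript in females, was higher in males by 1.40 (adjusted p = 3.03e-06) and stood at 0.77 in females without passing, and Lsp2, a larval serum protein, was higher in males by 0.82. Cyp4d21, a sex-dependent enzyme of that tissue, was higher by 1.36 in females and 0.57 in males, the female call being lost without replicate 3 or 4. P13 had a higher female mean of Cyp4d21 than P48, 7.45 beside 6.92, and H10 a higher male mean, 10.90 beside 10.85. Obp99a was lower by 0.82 and 0.61, with P50 lower still in females and P13 in males. The yolk and eggshell list, 24 genes, had no call in either sex at an adjusted p under 0.05 by limma, and 1 gene in each sex had an unadjusted p under 0.05.

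Detoxification genes were called in both directions in males. The shares in this paragraph stand beside 8.85% of all transcripts called in males and 1.55% in females. Of 86 cytochrome P450 genes, 13 were higher and 9 lower in males, 25.6% together, and 3 were higher and 4 lower in females, 8.14% together. Cyp6t1 was higher in males by 0.84, but H09 and H12 had male means of 4.30 and 4.11 and the other 12 lines 8.01 to 8.67, P26 and P56 being above the 8.55 of P48. Its female call (0.25, adjusted p = 0.0477) was lost under array centring (adjusted p = 0.0773), trended and robust moderation (adjusted p = 0.0505), without replicate 1, 2 or 3 and without H09, H12, P13, P50 or P56. Cyp4d1 and Cyp310a1 were higher in males by 0.75 and 0.69, Cyp28c1 and Cyp311a1 were lower by 0.61 and 0.65, and Cyp6g1, known for resistance to DDT, was lower in females by 0.55. Glutathione transferases had 5 of 36 higher and 2 lower in males (19.4%), led by GstE10 at 0.59, and UDP-glycosyltransferases 5 of 35 higher and 4 lower (25.7%). Cuticle genes had 9 of 104 higher and 5 lower in males (13.5%), with Cpr62Bb lower in both sexes by 0.69 and 0.58. H14 and P50 had lower male means of Cpr62Bb, 7.52 and 7.72 beside 7.74 for P48. Odorant-binding protein genes had 5 of 48 higher and 4 lower in males (18.8%). Immune genes had 4 of 41 higher and 2 lower in males (14.6%). PPO3, a prophenoloxidase, was higher in both sexes by 0.33 and 0.58. The other females averaged under the level of 5 for PPO3, so it met that level through P48 females alone. P13 had a higher male mean of PPO3 than P48, and the male call was lost without replicate 3. Tep4 was lower by 0.51 and 0.44, with P50 lower still in both sexes, and its female call was lost without replicate 2.

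Olfactory, gustatory and ionotropic receptor genes had 8 of 166 higher and 1 lower in P48 males (5.42%, beside 8.85% of all transcripts). None was called in females, where 6 had an unadjusted p under 0.05 by limma. Of the 8, 6 also departed between the sexes (3.61% of the list, beside 1.96% of all transcripts). They lie at the low end of the scale, under the level of 5 set for named genes, and the 4 named here were chosen after their values were seen. Or65b read 4.09, 4.15, 4.54 and 4.73 in P48 males against 3.35 to 3.89 (0.75 ± 0.08, adjusted p = 1.99e-10). Ir52c, a taste receptor gene, read 3.87, 3.73, 3.91 and 3.95 against 3.07 to 3.57, and Gr64a, a sugar receptor gene, 4.39, 4.12, 4.32 and 4.61 against 3.48 to 4.11, both apart from all other males. Gr33a, a bitter receptor gene that also acts in courtship, read 3.69, 4.28, 4.36 and 3.79 against 3.12 to 3.77, so replicate 1 lay within the range of the others. The male line mean passed for all 4 (adjusted p = 0.000111 to 0.0498).

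Of 50 spermatogenesis genes, 3 were called in males (6%, beside 8.85% of all transcripts). Sdic3 and Taf12L were higher in males, the latter a testis form of a TFIID subunit at 0.89, and dj, a sperm tail gene, was lower by 0.67. P15 had a lower male mean of dj, 8.58 beside 9.07 for P48. Of 45 oogenesis genes, 3 were called in males (6.67%) and 1 in females (2.22%, beside 1.55% of all transcripts). krimp, BicC and vret were higher in males by 0.68, 0.40 and 0.36 (vret not without replicate 4), and rhi, which marks piRNA clusters, was higher in females by 0.48. Muscle genes had 4 of 22 lower in males (18.2%), by 0.15 to 0.22. Each of these calls was lost without at least 1 replicate, Mlc2 without replicate 2 (adjusted p = 0.0961), Act87E without replicate 1 (adjusted p = 0.0764), and Act79B and TpnC41C under quantile normalization and without any 1 replicate. Mitochondrial ribosomal genes had 5 of 69 higher in males (7.25%) and 3 in females (4.35%), none lower in either sex, and ribosomal protein genes 2 of 41 higher in males (4.88%). Of 40 proteasome genes 3 were called in males (7.5%). Of 18 genes of sex determination and dosage compensation 2 were called in males (11.1%), where msl-2 and mle were lower in males, by 0.32 and 0.30, each lost without at least 1 replicate.

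**Figure D5:**
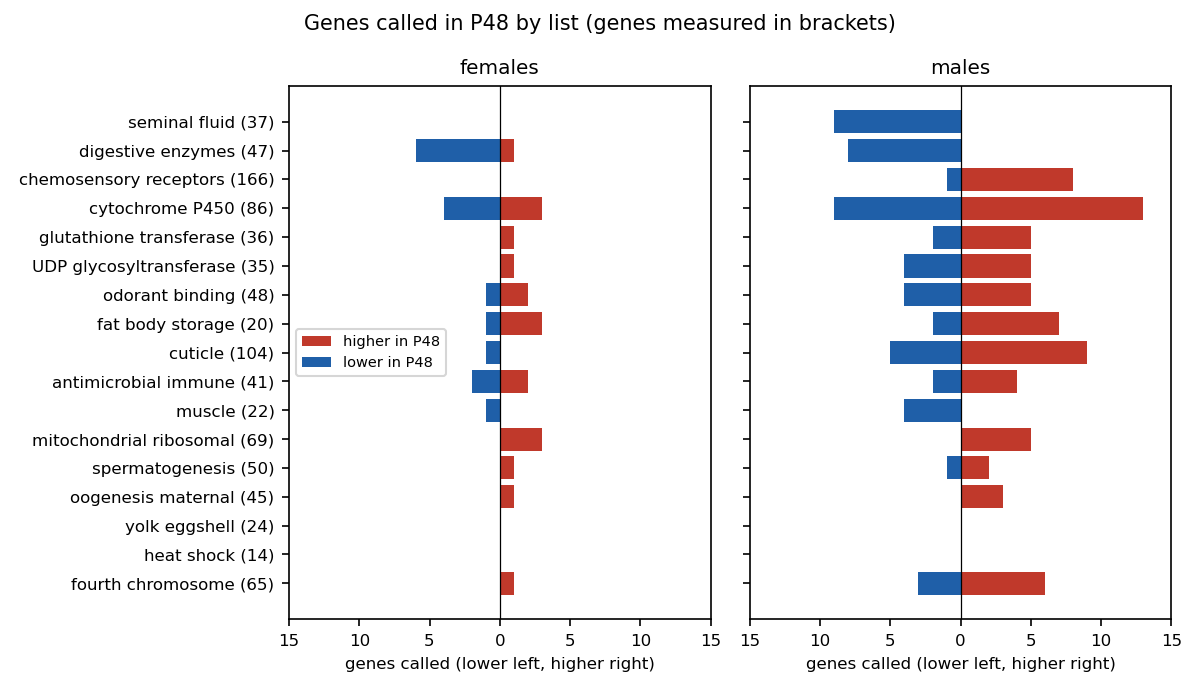
Number of genes called in P48 (x axis) for 17 gene lists, lower to the left in blue and higher to the right in red, in females (left) and males (right), with the number measured in brackets. Seminal fluid genes show 9 lower and none higher in males, and digestive enzymes 8 lower in males and 6 in females.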

How the data were processed

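RNA of 120 samples, each 6 whole flies, was hybridised to Affymetrix arrays, 4 per line and sex. The deposited values are log2 expression levels that the authors made with RMA (the affy package), per the labels and the methods of the study. Versions are not given in the sources used here, and the array number, not read depth, limits precision. After 183 control probe sets were dropped from 18952, 18,769 remained for testing. GEO's platform table gave 1 gene for 13,646 of them, several for 402 and none for 4721, and symbols were updated through RefSeq (Release 6 plus ISO1 MT).

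With limma 3.58.1 (R 4.3.3), P48 was set against the mean of the other 14 lines in each sex (60 arrays), the male-female difference was compared over 120 arrays, and the P48 mean was tested against 14 line means. P-values were adjusted by Benjamini-Hochberg over all transcripts, with a threshold of 0.05. Scripts were tested on simulated data. Named genes had 1 symbol, the brightest probe set and a level of at least 5, and were the 10 highest and 10 lowest shared differences and departures, the 5 highest and 5 lowest departures larger in females, and up to 4 called members per list. Members and lists were chosen with earlier results of these data known. Alternatives were a replicate block, centring, quantile normalization, a filter on dim probe sets, trended and robust moderation, stricter thresholds, 1 probe set per gene, and leaving out replicates or lines. The batch of each array was not modelled.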

Additional observations from a re-analysis of the deposited data

Results flagged for a closer look

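In 5 of the 66 groups of 4 P48 arrays tested, 1 array stood far from the other 3, where chance marks about 1 group in 20. The causes were not tested. Male replicate 4 was the lowest for Ssl2 (5.52, the next at 5.80) and CG15369 (4.61, the next at 4.89), and the highest for alphagamma-element (9.63, the next at 6.68). Male replicate 2 was the highest for CG2772 (6.58, the next at 5.49) and CG32751 (7.51, the next at 6.89).

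The difference of P48 from the other lines was itself different between males and females, by limma's test of the male minus female contrast, for 30 named genes. Towards males the departures were 1.60 for CG32751, 1.43 for ebd2, 1.42 for Sdic3, 1.42 for CG9981, 1.39 for alphagamma-element, 1.36 for CG40485, 1.33 for CG17684, 1.30 for tut, 1.22 for CG15605 and 1.18 for Amnionless. They were 1.04 for CG17470, 0.95 for gek, 0.94 for wake and 0.78 for Drep1. Towards females they were -4.22 for CG6961, -2.41 for CG14785, -2.19 for CG1894, -2.07 for CG17177, -1.68 for CG10029, -1.55 for CG15369, -1.32 for lncRNA:CR40465, -1.30 for CG33109, -1.26 for CG42828 and -1.10 for CG3528. They were -0.85 for CG3085, -0.77 for CG1304, -0.74 for CG15653, -0.71 for Ser6, -0.65 for fs(1)Yb and -0.46 for Ssl2. The sizes for CG6961, CG1304, CG17177, CG15369 and tut rest on P48 values at the low end of the scale. Those for fs(1)Yb, Ssl2 and Amnionless rest on low values in the other lines. Some others had low values in females of all lines, as Sdic3 did at 4.34 to 4.77. The adjusted p-values ran from 5.98e-39 for CG6961 to 0.0368 for Ssl2, which did not pass without replicate 1, 3 or 4 (adjusted p = 0.0975, 0.122 and 0.51).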

How the results depend on the processing

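No difference of a named gene changed sign under the alternatives run. At an adjusted p under 0.001 the calls were 81 in females, 509 in males, 33 shared and 110 departures, with 3 female and 6 male line means outside the spread between lines. At 2-fold or more they were 13, 64, 5 and 36, the male calls being 29 higher and 35 lower (0.155% and 0.186%), against 934 and 727 at any size. Without dim probe sets 12 male line means passed in place of 24. Leaving out 1 P48 replicate gave 163 to 210 female calls, 1039 to 1286 male calls, 67 to 86 shared and 191 to 269 departures, with 10 to 14 female and 21 to 29 male line means. Arrays outside all others then numbered 13 to 32 in females and 71 to 82 in males. Leaving out another line gave 253 to 329 female, 1538 to 1739 male, 109 to 142 shared and 338 to 394 departures. With the replicate number as a block the counts were 340, 2054, 149 and 467. Deviations from the line mean of same-numbered P48 and other arrays correlated by 0.020 in females and 0.171 in males on average. For other numbers the values were -0.0053 and -0.057. These largely follow from the first values, because deviations from a line mean cancel over its replicates, so they are no separate comparison. Pairing was taken to need every pair over 0.1, and 16 and 42 of 56 were. Centring, quantile normalization, trended and robust moderation and 1 probe set per gene kept the 4 main counts within 1.5 times. Of the single differences of the 44 leading genes under these alternatives, 2065 kept their side of the threshold and 47 did not, most of them without 1 replicate, and for the list genes 1980 did and 242 did not. The causes were not tested. The 4 arrays per group and signal near background limit the dim genes.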
